A study of Mus musculus with 8 samples.

Results

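The 37 genes described here are the ligands, receptors, SMAD proteins, corepressors and responsive products of the TGF-beta pathway, together with the kinases, scaffolds, TEAD factors and target genes of the Hippo pathway and its effectors YAP and TAZ. They were chosen by name. Each was measured by the probe set that carries its symbol alone, and where several did, by the one with the highest mean over the arrays, which concerned Tead1 only. All 37 were found among the 19938 genes with such a probe set. Adipose precursor cells (APs) are the stromal cells of fat from which adipocytes form. APs were taken from male C57BL/6J mice 7-8 weeks old after 3 days on high fat diet (HFD) or standard diet (SD). Visceral APs (viAPs) came from the perigonadal and subcutaneous APs (scAPs) from the inguinal fat pads, and the 4 groups were HFD viAPs, SD viAPs, HFD scAPs and SD scAPs. Each group had 2 Affymetrix Mouse Gene 1.0 ST arrays hybridised with RNA from pools of 3 mice, so that tests measure the spread between pools and not between mice. Cells were bead-purified by depletion of CD45+ and CD31+ cells and selection for SCA-1, and lysed without culture. The arrays carry the numbers 1 to 8 of the labels.

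TGF-beta ligands are secreted in a latent form, and the active dimer assembles type II and type I receptor kinases that phosphorylate SMAD2 and SMAD3. These join SMAD4, enter the nucleus and switch on target genes, among them the inhibitors Smad7 and Skil that dampen the same signal. In the Hippo pathway the kinases LATS1 and LATS2 phosphorylate YAP and TAZ and keep them out of the nucleus, and when this brake is off YAP and TAZ bind TEAD factors and transcribe genes such as Ccn1, Ccn2 and Ankrd1. TGF-beta is known to hold precursor cells back from becoming adipocytes, and active YAP and TAZ do the same.

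The sequences that TEAD and SMAD proteins are known to read were looked for in the promoters of the 37 genes, because several of these genes are textbook targets of one or the other. RefSeq promoters on GRCm38.p6, from 250 bases before to 50 bases after each start, were at hand for 25 of the 37 genes, which have 34 promoters. Tgfb3, Fst, Tgfbr3, Smad2, Smad4, Smad7, Skil, Pmepa1, Ldlrad4, Tead1, Ccn2 and Nuak2 had none in the table. The motifs were GGAATG for TEAD, the palindrome GTCTAGAC and the element CAGACA for SMADs, and TGAGTCA for AP-1, each on both strands. No 2 motif matches overlapped in these promoters. GGAATG, which reads CATTCC on the other strand, was present in 11 of the 34 promoters (32.4%), belonging to 9 genes, and in 4817 of all 32851 promoters (14.7%). CAGACA was in 6 of the 34 promoters (17.6%), and in 21.0% of all. GTCTAGAC was in 0 of the 34 and in 0.213% of all, and TGAGTCA was in 0 of the 34 and in 5.20% of all. The 3 promoters below are those of the known YAP and TAZ targets Amotl2, Ccn1 and Ankrd1. They are written 5′ to 3′ on the strand of the gene, with GGAATG or CATTCC in capitals. That of Amotl2 is chr9:102717554-102717853 on the plus strand, that of Ccn1 chr3:145649936-145650235 on the minus strand and that of Ankrd1 chr19:36119795-36120094 on the minus strand.
Amotl2 promoter: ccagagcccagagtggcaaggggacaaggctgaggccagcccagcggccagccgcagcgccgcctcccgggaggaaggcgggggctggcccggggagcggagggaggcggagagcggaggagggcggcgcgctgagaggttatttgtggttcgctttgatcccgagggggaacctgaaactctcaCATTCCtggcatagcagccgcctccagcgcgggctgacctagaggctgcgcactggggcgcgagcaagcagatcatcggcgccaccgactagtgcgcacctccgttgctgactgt
Ccn1 promoter: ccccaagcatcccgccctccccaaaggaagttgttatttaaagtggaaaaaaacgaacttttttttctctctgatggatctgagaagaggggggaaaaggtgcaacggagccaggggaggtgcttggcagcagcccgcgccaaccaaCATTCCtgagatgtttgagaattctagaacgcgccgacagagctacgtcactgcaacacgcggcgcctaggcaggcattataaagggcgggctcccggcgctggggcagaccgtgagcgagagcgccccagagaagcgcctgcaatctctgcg
Ankrd1 promoter: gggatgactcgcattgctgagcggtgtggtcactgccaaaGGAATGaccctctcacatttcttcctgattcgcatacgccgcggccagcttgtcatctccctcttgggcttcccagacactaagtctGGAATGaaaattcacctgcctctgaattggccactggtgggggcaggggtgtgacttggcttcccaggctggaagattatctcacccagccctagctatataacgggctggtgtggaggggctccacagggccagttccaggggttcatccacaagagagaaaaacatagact

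The match began 65 bases before the start in Amotl2 and 103 bases before it in Ccn1. Ankrd1 held 2 matches, 210 and 123 bases before its start, and also the SMAD element CAGACA 137 bases before it. Of the genes called below in a diet comparison, Wwtr1, Tead3, Lats2 and Axl held GGAATG as well, and their sites are shown with 12 bases on either side, the motif in capitals. Wwtr1 encodes TAZ itself, Tead3 is one of the factors that reads the motif, Lats2 is the kinase that inhibits YAP and TAZ, and Axl is a receptor kinase induced by YAP.
Wwtr1 chr3:57576029-57576058 (minus strand): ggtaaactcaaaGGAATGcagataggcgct
Tead3 chr17:28350706-28350735 (minus strand): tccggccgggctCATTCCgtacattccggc
Tead3 chr17:28350697-28350726 (minus strand): gctcattccgtaCATTCCggccatccccct
Tead3 chr17:28350581-28350610 (minus strand): aggtaagcccggGGAATGcaactcggaggc
Tead3 chr17:28350970-28350999 (minus strand): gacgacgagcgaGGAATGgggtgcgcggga
Lats2 chr14:57746102-57746131 (minus strand): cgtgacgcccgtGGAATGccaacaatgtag
Axl chr7:25788949-25788978 (minus strand): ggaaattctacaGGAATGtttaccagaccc

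The Wwtr1 site fell in both of its overlapping promoters. The other 2 genes with a match, Yap1 and Ajuba, were called in no diet comparison, and neither was Ankrd1. Whether genes with a match were called more often than genes without was not tested. A match is a run of letters and was not tested for binding.

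**Figure D1:**
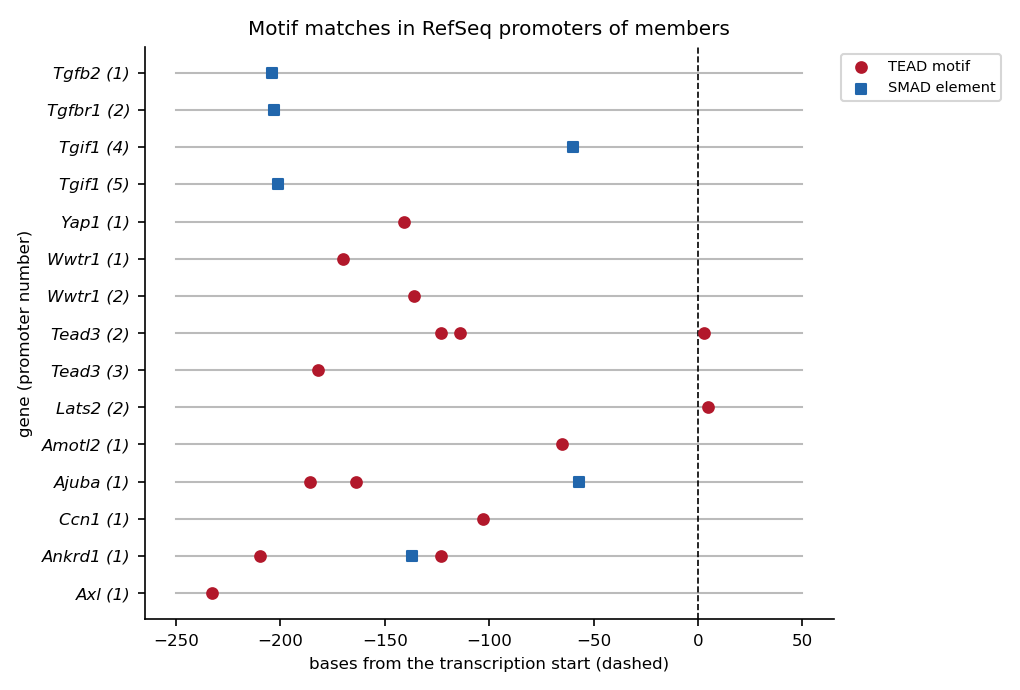
Position of each motif match (horizontal axis, bases from the start site) in the promoters of the genes that hold one (rows), coloured by motif. GGAATG matches lie between 233 bases before the start (Axl) and 5 bases after it (Lats2), and Tead3, Ankrd1 and Ajuba hold more than 1 in a promoter.

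One array needs naming before the results. Tbx15, a developmental regulator of subcutaneous fat, had a log2 intensity of 9.77 on the array labelled SD viAP 4, against 9.67 and 9.34 in SD scAPs, while the array labelled SD viAP 3 had 4.70 and HFD viAPs had 3.91 and 4.09. Tcf21, a marker of visceral precursors, was at 5.32 on SD viAP 4, against 5.04 and 5.52 in SD scAPs, and at 9.61 on SD viAP 3. Wt1, also visceral, was at 5.98 on SD viAP 4, against 6.00 and 6.51 in SD scAPs, and at 8.71 on SD viAP 3. All 3 depot genes thus placed the array labelled SD viAP 4 with the scAPs. Over the 21789 probe sets with 1 symbol its Pearson correlation was 0.988 with SD scAP 2, 0.981 with SD scAP 1 and 0.980 with SD viAP 3. It was kept under its label, and many results in viAPs are also given without it. The orders of the arrays and the counts over both depots are given with it only. The fit without it leaves 1 array in SD viAPs, which is assumed to vary like the other groups.

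As for the cells themselves, the precursor marker Pdgfra was high on all 8 arrays, with log2 intensities between 11.01 and 11.56, and summed intensities of 9 macrophage and leukocyte markers lay between 398 and 530. Endothelial RNA was not evenly spread. The summed intensity of 20 endothelial markers was 4346-4436 in HFD scAPs, against 2403-2523 in SD scAPs, and 2770-2956 in HFD viAPs, against 2271-2294 in SD viAPs. In viAPs the higher sum did not reflect most of the markers: 5 of the 20 had a change above 0, the median change was -0.23 and 2 were called, both higher (Eng and Tek, named after their values were seen). Pecam1, which encodes the CD31 used for depletion, was at 7.78 and 7.70 in HFD scAPs, against 6.25 and 6.38 in SD scAPs. These are bulk RNA measurements, in which more cells of a type and more RNA per cell cannot be told apart.

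In viAPs, 3 days of HFD were accompanied by higher levels of most of these genes. In limma's test with Benjamini-Hochberg adjustment, 23 of the 37 were called at an adjusted p under 0.05, of which 22 were higher and 1, Tgfbi, was lower. The largest increases were in Ccn2 (3.84-fold), Smad7 (2.78-fold) and Skil (2.46-fold), the only 3 that reached 2-fold. The median change of the 37 genes was 0.60 on the log2 scale. Their rise took place within a general one: of the 3076 probe sets that passed the filter on level and spread, 60.5% were called higher and 4.49% lower in HFD viAPs, and outside the filter 2.37% were called higher. Inside the filter 22 of 27 of these genes were called higher (81.5%), outside it 0 of 10. The filter was set from the same 8 arrays as the tests, for these genes and for the background alike. Smad7 and Tead3 were above log2 7 on 4 arrays each, all of them HFD. Smad2 was above it on 5, of which SD scAP 1 was the only SD array. Counts inside the filter or above the expression level thus hold these genes through their HFD arrays, and are a description only. The median change was 0.63 over the filtered probe sets, 0.30 over the 7315 above the expression level and -0.05 over all 21789. When only the expression level was required, 28.0% of probe sets were called higher, and 22 of the 30 genes above that level were (73.3%). Without the array labelled SD viAP 4, 18 were called higher, all among the 22, where 46.5% of filtered probe sets were. Most calls were lost without HFD viAP 5 or without HFD viAP 6, where the median changes of the 37 genes were 0.54 and 0.63. The share of filtered probe sets called was not counted in those fits.

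In scAPs the same direction prevailed with fewer calls. 6 genes were called, all higher in HFD: Tgfbr1, Smad3, Smad7, Skil, Ski and Amotl1. Only Smad7 reached 2-fold (2.30-fold). The median change was 0.42, against 0.40 over the filtered probe sets and 0.18 over those above the expression level. Inside the filter 20.0% of probe sets were called higher, and 6 of 27 of these genes were (22.2%), a share near the background. Outside the filter 0.192% were called higher, and 0 of 10 of these genes. With the expression level alone as the filter, 8.19% of probe sets and 5 of 30 genes (16.7%) were called higher. This count moved with single arrays. All calls were lost without HFD scAP 7 or HFD scAP 8, and most without SD scAP 2, HFD viAP 5 or HFD viAP 6. More genes were called without SD scAP 1, SD viAP 3 or SD viAP 4. The share of filtered probe sets called in scAPs was not counted in those fits, so these shifts cannot be set against the background. Endothelial markers moved in the same comparison, 11 of 20 being called higher in HFD scAPs with a median change of 0.98 (5 of 20 without SD viAP 4), and their part in the changes of the 37 genes was not tested.

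Averaged over both depots, 24 genes were called higher in HFD and 0 lower, with 2 at 2-fold or more (Smad7 and Ccn2). The background was 66.9% called higher inside the filter, where 22 of 27 of the genes were, and 4.38% outside it, where Tgfbr3 and Acvr1b were. The plain order of the arrays gave a similar picture. Both HFD arrays lay above both SD arrays in viAPs for 29 of the 37 genes (78.4%), against 28.9% of all probe sets. Above the expression level, which Smad2, Smad7 and Tead3 reached through their HFD arrays, it was 26 of 30 genes (86.7%), against 62.2%. In scAPs this held for 28 genes (75.7%), against 21.7%, and above the level for 26 of 30 (86.7%), against 44.3%. All 4 HFD arrays lay above all 4 SD arrays, whatever the depot, for 19 of 30 genes above the level (63.3%), against 27.8%. Of all 37 it held for 20 genes (54.1%), against 11.0% of all probe sets. These were Tgfb1, Tgfb3, Tgfbr3, Acvr1, Acvr1b, all 3 of Smad2, Smad3 and Smad4, Smad7, Skil, Ski, Tgif1, Wwtr1, Tead3, Lats1, Lats2, Amotl1, Amotl2, Ccn2 and Axl.

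**Figure D2:**
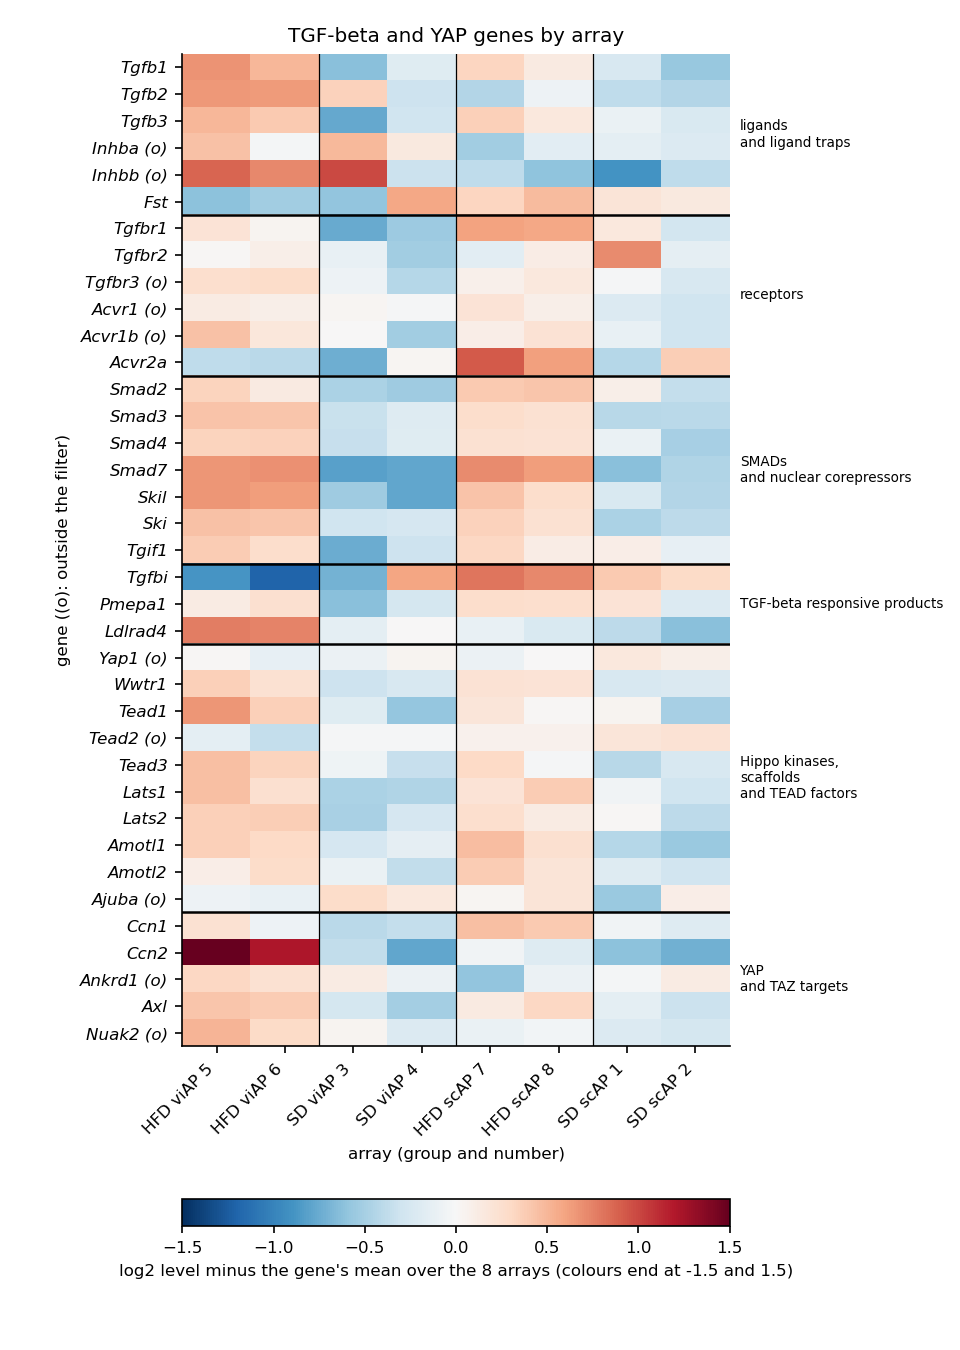
Log2 intensity of each of the 37 genes (rows, grouped by role) on each of the 8 arrays (columns, grouped by diet and depot), as the difference from the gene's own mean. The HFD columns are above the mean for most rows in both depots, and Ccn2 spans the widest range, 2.31 between its highest and lowest array.

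Among the nuclear arm of the pathway, the SMADs and their corepressors, all 7 genes were called higher in HFD viAPs and 4 in HFD scAPs, with median changes of 0.75 and 0.66. All 7 were inside the filter, where 60.5% of probe sets were called higher in viAPs and 20.0% in scAPs, with medians of 0.63 and 0.40. Smad7 and Smad2 entered the filter through their HFD arrays. Smad7 (probe set 10456745) encodes the inhibitory SMAD that competes for the type I receptor and recruits its degradation. Its log2 intensities were 8.00 and 8.03 in HFD viAPs, against 6.52 and 6.55 in SD viAPs, and 8.04 and 7.96 in HFD scAPs, against 6.71 and 6.88 in SD scAPs. The HFD arrays of both depots thus lay together more than 1 log2 unit above all SD arrays. The change averaged over depots was 1.34 ± 0.11 (SE, adjusted p = 0.000891), and in viAPs it was 1.49 without SD viAP 4 (adjusted p = 0.00361). Skil (probe set 10491300) encodes SnoN, a corepressor that binds SMADs and is itself a TGF-beta target. It measured 8.81 and 8.78 in HFD viAPs, against 7.62 and 7.38 in SD viAPs, a difference of 1.30 ± 0.18 (adjusted p = 0.00391). In scAPs it measured 8.58 and 8.41 in HFD, against 7.92 and 7.71 in SD, a difference of 0.68 ± 0.18 (adjusted p = 0.0366). The groups did not overlap in either depot, and the larger viAP change did not pass the test of the difference between depots (0.62, adjusted p = 0.453).

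Ski, a corepressor closely related to Skil, was at 9.67 and 9.64 in HFD viAPs, against 8.92 and 8.98 in SD viAPs, and at 9.57 and 9.45 in HFD scAPs, against 8.75 and 8.83 in SD scAPs. Its change differed between depots by -0.02, with 0.70 ± 0.16 in viAPs (adjusted p = 0.00958) and 0.72 ± 0.16 in scAPs (adjusted p = 0.0277). Smad3, the receptor-activated SMAD that binds DNA directly, was at 8.89 and 8.88 in HFD viAPs, against 8.13 and 8.27 in SD viAPs, and at 8.73 and 8.69 in HFD scAPs, against 8.05 and 8.06 in SD scAPs. It changed by 0.69 ± 0.16 in viAPs (adjusted p = 0.00994) and by 0.66 ± 0.16 in scAPs (adjusted p = 0.0312), a difference of 0.03. Smad2, the other receptor-activated SMAD, and Smad4, the common partner, were called in viAPs only, at 0.75 (adjusted p = 0.0138) and 0.60 (adjusted p = 0.0221). In scAPs they changed by 0.54 (adjusted p = 0.0711) and 0.52 (adjusted p = 0.0697), and the differences between depots did not pass (adjusted p = 0.757 and 0.898). Tgif1, a homeobox repressor that binds SMAD2, had 8.88 and 8.75 in HFD viAPs, against 7.75 and 8.18 in SD viAPs, and 8.80 and 8.60 in HFD scAPs, against 8.59 and 8.37 in SD scAPs. It was higher in HFD viAPs by 0.85 ± 0.20 (adjusted p = 0.0108) and had a change of 0.22 ± 0.20 in scAPs (adjusted p = 0.401). All 7 stayed called in viAPs without SD viAP 4, with changes from 0.68 (Smad4) to 1.49 (Smad7).

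**Figure D3:**
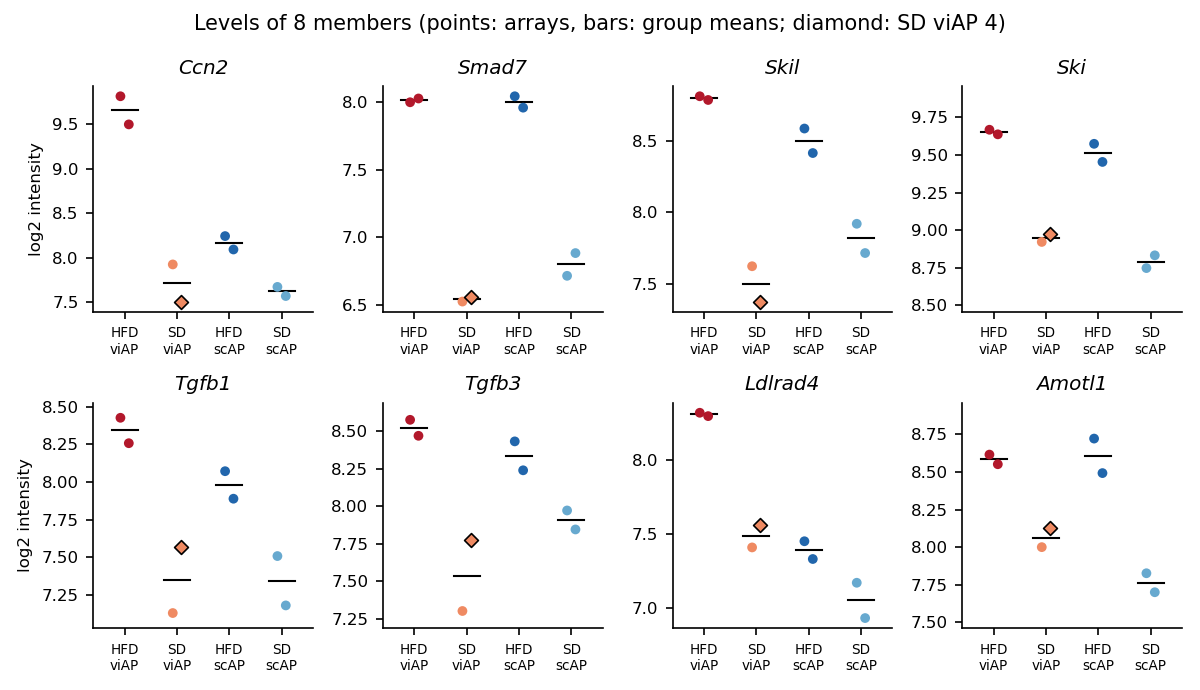
Log2 intensity (vertical axis) of Ccn2, Smad7, Skil, Ski, Tgfb1, Tgfb3, Ldlrad4 and Amotl1 on the 8 arrays, by group. Points are single arrays and lines the group means, and for Smad7 the 4 HFD arrays (7.96-8.04) lie above the 4 SD arrays (6.52-6.88).

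Of the 6 ligands and traps, 3 were called higher in HFD viAPs and 0 in HFD scAPs, with median changes of 0.54 and 0.19. The 3 were among the 4 inside the filter (background 60.5% in viAPs and 20.0% in scAPs). Tgfb1 (probe set 10551185), which encodes the most widely expressed isoform, had log2 intensities of 8.43 and 8.26 in HFD viAPs, against 7.13 and 7.57 in SD viAPs. In scAPs it had 8.07 and 7.89 in HFD, against 7.51 and 7.18 in SD. No HFD array overlapped an SD array, and the change was 0.99 ± 0.21 in viAPs (adjusted p = 0.00831), or 1.21 without SD viAP 4 (adjusted p = 0.00748), and 0.64 ± 0.21 in scAPs (adjusted p = 0.0610). Tgfb3, another isoform, had 8.57 and 8.47 in HFD viAPs, against 7.30 and 7.77 in SD viAPs, and 8.43 and 8.24 in HFD scAPs, against 7.97 and 7.85 in SD scAPs. It was higher in HFD viAPs by 0.98 ± 0.20 (adjusted p = 0.00746), or 1.22 without SD viAP 4 (adjusted p = 0.00621), and differed by 0.43 ± 0.20 in scAPs (adjusted p = 0.137).

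The viAP call of Tgfb2 rested on 1 array. Tgfb2 had 8.57 and 8.56 in HFD viAPs, against 8.27 on SD viAP 3 and 7.61 on SD viAP 4, and 7.48 and 7.85 in HFD scAPs, against 7.54 and 7.48 in SD scAPs. On SD viAP 4 its level was thus nearer to those of scAPs than to that of SD viAP 3. The viAP change of 0.63 ± 0.24 (adjusted p = 0.0459) was 0.30 without that array (adjusted p = 0.242). Inhbb, which encodes the beta B subunit of activin, was outside the filter with 7.06 and 6.91 in HFD viAPs, against 7.18 and 5.86 in SD viAPs, and 5.81 and 5.58 in HFD scAPs, against 5.29 and 5.81 in SD scAPs. Its viAP change was 0.46 ± 0.37 (adjusted p = 0.428) and -0.20 without SD viAP 4 (adjusted p = 0.671). Inhba, the beta A subunit, lay between 5.81 and 6.82 on all arrays and changed by -0.11 in viAPs and -0.17 in scAPs, with adjusted p of 0.736 and 0.728. Fst encodes follistatin, the secreted trap of activins. It had 9.12 and 9.21 in HFD viAPs, against 9.15 on SD viAP 3 and 10.32 on SD viAP 4, and 10.06 and 10.21 in HFD scAPs, against 9.93 and 9.88 in SD scAPs. Its viAP change of -0.57 ± 0.33 (adjusted p = 0.144) was 0.02 without SD viAP 4 (adjusted p = 0.939) and -1.15 without SD viAP 3, so its sign depended on which of the 2 SD viAP arrays was kept.

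Of the 6 receptors, Tgfbr1 was called higher in HFD in both depots and the other 5 in neither, with median changes of 0.44 in viAPs and 0.38 in scAPs. 3 of the 6 were inside the filter (background 60.5% in viAPs and 20.0% in scAPs). The scAP call of Tgfbr1 depended on the filter. It was lost with no filter (adjusted p = 0.101) and with the expression level alone as the filter. Tgfbr1 is the type I receptor kinase. It measured 7.81 and 7.64 in HFD viAPs, against 6.85 and 7.06 in SD viAPs, and 8.20 and 8.18 in HFD scAPs, against 7.76 and 7.33 in SD scAPs. The changes were 0.78 ± 0.20 (adjusted p = 0.0130) and 0.65 ± 0.20 (adjusted p = 0.0497), and the first was 0.88 without SD viAP 4 (adjusted p = 0.0172). Tgfbr2, the type II receptor that binds the ligand first, had 10.65 and 10.72 in HFD viAPs, against 10.52 and 10.12 in SD viAPs, and 10.47 and 10.75 in HFD scAPs, against 11.35 and 10.50 in SD scAPs. It was among the more strongly hybridised probe sets (98.2th percentile of mean level) and its diet changes of 0.37 ± 0.28 and -0.31 ± 0.28 did not pass (adjusted p = 0.260 and 0.409). The coreceptor betaglycan, Tgfbr3, and the activin receptor Acvr1b were called in neither depot alone but when the depots were averaged, at 0.38 (adjusted p = 0.0467) and 0.46 (adjusted p = 0.0477), and without SD viAP 4 these were 0.29 and 0.33 with adjusted p of 0.108 and 0.110. With the expression level alone as the filter, Tgfbr3 was also called in viAPs (0.51, adjusted p = 0.0432, against 0.0720 otherwise). Acvr1, a type I receptor of activins and bone morphogenetic proteins, was at 7.47 and 7.36 in HFD scAPs, against 7.07 and 6.97 in SD scAPs, without overlap, but its change of 0.40 ± 0.12 did not pass (adjusted p = 0.148), nor did that of 0.09 in viAPs (adjusted p = 0.631). Acvr2a, an activin type II receptor, passed no diet test. Acvr2a had 9.24 and 8.93 in HFD scAPs, against 7.89 and 8.69 in SD scAPs (0.80 ± 0.32, adjusted p = 0.0942), and a change of -0.04 ± 0.32 in viAPs (adjusted p = 0.920), or 0.35 without SD viAP 4 (adjusted p = 0.350).

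The 3 products known to respond to TGF-beta in other cells were all called in viAPs, 2 higher and 1 lower, and 0 in scAPs. All 3 were inside the filter, where 60.5% of probe sets were called higher and 4.49% lower in viAPs. Pmepa1 and Ldlrad4 encode related membrane proteins that sequester receptor-activated SMADs. Ldlrad4 had log2 intensities of 8.32 and 8.30 in HFD viAPs, against 7.41 and 7.56 in SD viAPs, and 7.45 and 7.33 in HFD scAPs, against 7.17 and 6.93 in SD scAPs. It was higher by 0.82 ± 0.17 in HFD viAPs (adjusted p = 0.00762), with a change of 0.34 ± 0.17 in scAPs (adjusted p = 0.156). Pmepa1 had 9.23 and 9.35 in HFD viAPs, against 8.48 and 8.85 in SD viAPs, and 9.37 and 9.36 in HFD scAPs, against 9.32 and 8.91 in SD scAPs. It was higher in HFD viAPs by 0.63 ± 0.21 (adjusted p = 0.0288) and differed by 0.26 ± 0.21 in scAPs (adjusted p = 0.350). Both calls held without SD viAP 4, at 0.90 (adjusted p = 0.0118) and 0.81 (adjusted p = 0.0201). Tgfbi (probe set 10405587) encodes a secreted matrix protein named for its induction by TGF-beta. It had 8.86 and 8.55 in HFD viAPs, against 9.05 on SD viAP 3 and 10.34 on SD viAP 4, and 10.55 and 10.47 in HFD scAPs, against 10.14 and 10.04 in SD scAPs. SD viAP 4 again had the level of the scAPs. The viAP change was -0.99 ± 0.36 (adjusted p = 0.0398) with that array, -0.34 without it (adjusted p = 0.180) and -1.63 without SD viAP 3. In scAPs the change was 0.42 ± 0.36 (adjusted p = 0.375).

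**Figure D4:**
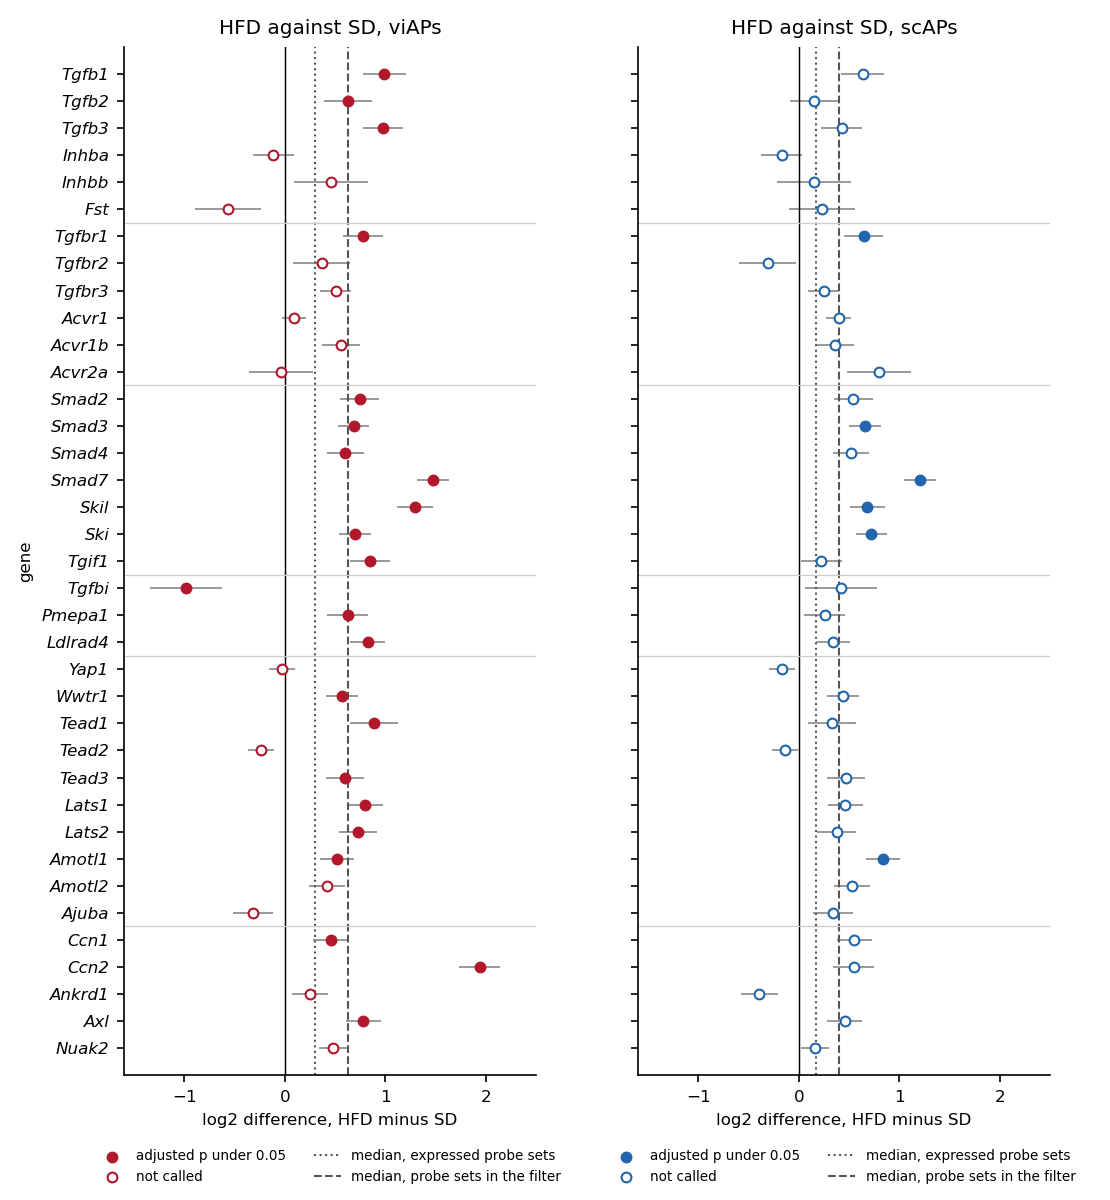
HFD minus SD change in log2 intensity (horizontal axis) of each gene with its standard error, in viAPs and scAPs, with the medians of all filtered probe sets (0.63 and 0.40) and of all probe sets above the expression level (0.30 and 0.18) as vertical lines. Ccn2, Smad7 and Skil lie farthest right in viAPs and Tgfbi farthest left.

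In the Hippo pathway 6 of 10 genes were called higher in HFD viAPs and 1 in HFD scAPs, with median changes of 0.55 and 0.41. These calls were among 7 genes inside the filter, where the background was 60.5% in viAPs and 20.0% in scAPs. Tead3 entered the filter through its HFD arrays. Of the 2 coactivators, Wwtr1 was called in viAPs and Yap1 was not. Yap1 had 7.83 and 7.69 in HFD viAPs, against 7.72 and 7.85 in SD viAPs, and 7.72 and 7.82 in HFD scAPs, against 7.97 and 7.91 in SD scAPs, with changes of -0.03 ± 0.13 and -0.17 ± 0.13 (adjusted p = 0.894 and 0.559). Wwtr1, which encodes TAZ, had 8.80 and 8.67 in HFD viAPs, against 8.13 and 8.19 in SD viAPs, and 8.65 and 8.64 in HFD scAPs, against 8.19 and 8.22 in SD scAPs. It was called in viAPs at 0.57 ± 0.16 (adjusted p = 0.0169, or 0.0290 without SD viAP 4), and its change in scAPs was 0.44 ± 0.16 (adjusted p = 0.0713). The 4 HFD arrays of Wwtr1 lay above its 4 SD arrays, while those of Yap1 were mixed.

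The kinases that act as the brake of the pathway were called higher too. Lats1 had 8.52 and 8.31 in HFD viAPs, against 7.60 and 7.63 in SD viAPs, and 8.28 and 8.46 in HFD scAPs, against 8.02 and 7.78 in SD scAPs. It was higher in HFD viAPs by 0.80 ± 0.18 (adjusted p = 0.00927) and Lats2 by 0.73 ± 0.19 (adjusted p = 0.0149), and in scAPs they changed by 0.46 (adjusted p = 0.0848) and 0.38 (adjusted p = 0.163). Both stayed called without SD viAP 4, at 0.82 (adjusted p = 0.0174) and 0.85 (adjusted p = 0.0178). Angiomotin-like proteins tether YAP in the cytoplasm. Amotl1 had 8.61 and 8.55 in HFD viAPs, against 8.00 and 8.12 in SD viAPs, and 8.72 and 8.49 in HFD scAPs, against 7.83 and 7.70 in SD scAPs. Its scAP change of 0.84 ± 0.17 (adjusted p = 0.0229) was above its viAP change of 0.52 ± 0.17 (adjusted p = 0.0273), a difference that did not pass (-0.32, adjusted p = 0.586). Amotl2, which carries GGAATG 65 bases before its start, had changes of 0.42 in viAPs (adjusted p = 0.0665) and 0.53 in scAPs (adjusted p = 0.0646) and was called only over both depots (0.47, adjusted p = 0.0109). Without SD viAP 4 this mean was 0.40 (adjusted p = 0.0560).

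Of the TEAD factors, Tead1 and Tead3 were called in viAPs and Tead2 was not. Tead1 had 8.83 and 8.52 in HFD viAPs, against 7.99 and 7.58 in SD viAPs, and 8.35 and 8.19 in HFD scAPs, against 8.21 and 7.67 in SD scAPs. It was higher in HFD viAPs by 0.89 ± 0.24 (adjusted p = 0.0155) on its stronger probe set and by 0.69 ± 0.23 (adjusted p = 0.0299) on the other, and Tead3 by 0.60 ± 0.19 (adjusted p = 0.0258). Neither call held without SD viAP 4, where the changes were 0.69 for Tead1 (adjusted p = 0.0546) and 0.46 for Tead3 (adjusted p = 0.0931). Tead2 lay below the expression level, between 5.49 and 6.07, and changed by -0.24 ± 0.13 in viAPs (adjusted p = 0.247). Ajuba, a LIM scaffold that inhibits LATS kinases, was also below that level, between 4.81 and 5.64, and passed no test.

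Of the 5 YAP and TAZ targets, 3 were called higher in HFD viAPs and 0 in HFD scAPs, with median changes of 0.48 and 0.46. The 3 were all of this group inside the filter, where 60.5% of probe sets were called higher in viAPs. Ccn2 (probe set 10362201), also called CTGF, encodes a matricellular protein that is a common target of TGF-beta and YAP. Its log2 intensities were 9.81 and 9.50 in HFD viAPs, against 7.92 and 7.51 in SD viAPs, and 8.24 and 8.09 in HFD scAPs, against 7.67 and 7.57 in SD scAPs. The HFD viAP arrays stood more than 1 log2 unit above all others. The viAP change was 1.94 ± 0.20 (adjusted p = 0.00237), or 1.73 without SD viAP 4 (adjusted p = 0.00339), and the gene remained called with any 1 array left out (adjusted p up to 0.0357), as only Smad7 did besides (adjusted p up to 0.0470). In scAPs the change was 0.55 ± 0.20 (adjusted p = 0.0805). The difference between the depots, 1.39 ± 0.29, had an unadjusted p of 0.00110 and an adjusted p of 0.307. Ccn1, also called CYR61, encodes the sister protein and has a GGAATG match 103 bases before its start. It had 12.32 and 12.02 in HFD viAPs, against 11.69 and 11.73 in SD viAPs, and 12.55 and 12.49 in HFD scAPs, against 12.04 and 11.90 in SD scAPs. The viAP change was 0.46 ± 0.17 (adjusted p = 0.0450), or 0.48 without SD viAP 4 (adjusted p = 0.0753), and the scAP change was 0.55 ± 0.17 (adjusted p = 0.0533). Both HFD groups lay above their SD groups, and in scAPs Ccn1 and Ccn2 changed by the same amount, 0.55.

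Axl, the receptor for the ligand GAS6, had 11.32 and 11.28 in HFD viAPs, against 10.63 and 10.39 in SD viAPs, and 11.03 and 11.21 in HFD scAPs, against 10.75 and 10.58 in SD scAPs. It was called in viAPs at 0.78 ± 0.18 (adjusted p = 0.00958, or 0.0262 without SD viAP 4), and changed by 0.46 ± 0.18 in scAPs (adjusted p = 0.0857). Ankrd1, a nuclear cofactor best known in muscle, was below the expression level, and its promoter held 2 GGAATG matches. It had 5.86 and 5.78 in HFD viAPs, against 5.67 and 5.46 in SD viAPs, and 4.95 and 5.46 in HFD scAPs, against 5.52 and 5.67 in SD scAPs, and neither change passed (0.25, adjusted p = 0.376, and -0.39, adjusted p = 0.320). Nuak2, an AMPK-related kinase, was at 7.23 and 7.00 in HFD viAPs, against 6.75 and 6.51 in SD viAPs (0.48 ± 0.14, adjusted p = 0.0661). It did not pass in scAPs either (0.16 ± 0.14, adjusted p = 0.629).

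Whether the diet change itself differed between depots was tested as the viAP change minus the scAP change. For 27 of the 37 genes this was above 0. So it was for 71.8% of filtered probe sets, 64.8% of those above the expression level and 47.7% of all. After adjustment 0 genes passed limma's test (0.00% of the filtered probe sets were called higher). An unadjusted p under 0.05 was found for 5: Ccn2, Skil, Ankrd1, Ajuba and Tgfbi. The size of the difference depended on which SD viAP array was kept. With SD viAP 3 left out it was 1.60 for Ccn2, -2.06 for Tgfbi and -1.38 for Fst. With SD viAP 4 left out the same differences were 1.18, -0.76 and -0.21. Each of these fits rests on 1 SD viAP array.

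Between the depots of HFD mice, 3 genes were called: Ccn2 and Ldlrad4 were higher and Tgfbi was lower in HFD viAPs than in HFD scAPs. The background was 3.15% of filtered probe sets called higher and 2.02% lower. The difference was 1.49 ± 0.20 for Ccn2 (2.80-fold, adjusted p = 0.0159), 0.92 ± 0.17 for Ldlrad4 (1.89-fold, adjusted p = 0.0281) and -1.80 ± 0.36 for Tgfbi (adjusted p = 0.0295), which was 3.49-fold higher in HFD scAPs. A further 9 genes had an unadjusted p under 0.05, among them Tgfb2 (0.90, adjusted p = 0.0655), Acvr2a (-1.15, adjusted p = 0.0726), Fst (-0.97, adjusted p = 0.120) and Inhbb (1.28, adjusted p = 0.172). The calls changed when 1 array was left out, also with SD arrays, which do not enter the difference itself. Leaving out SD viAP 3 or SD viAP 4 added calls, and leaving out any other array removed all of them. The share of filtered probe sets called in those fits was not counted. The endothelial markers moved in this comparison too, with 12 of 20 called lower in HFD viAPs and a median of -1.10, and their part in the differences was not tested.

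Between the depots of SD mice 0 of the 37 genes were called with all arrays (0.00% of filtered probe sets were called higher), and 5 had an unadjusted p under 0.05. Without the array labelled SD viAP 4, the differences rest on SD viAP 3 alone. Tgfb2 (0.76) and Inhbb (1.63) were higher and Fst (-0.76), Tgif1 (-0.73) and Tgfbi (-1.04) lower on SD viAP 3 than in SD scAPs. These genes are named because they were called in that fit. Inside the filter the share called was near the background. The background in that fit was 7.15% of filtered probe sets called higher and 10.8% lower, and Inhbb lay outside the filter. For Tgfb2, Inhbb, Fst and Tgfbi the direction was that between the depots of HFD mice, which shared no array with the SD comparison. Tgif1 differed by 0.11 between the depots of HFD mice (adjusted p = 0.808).

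**Figure D5:**
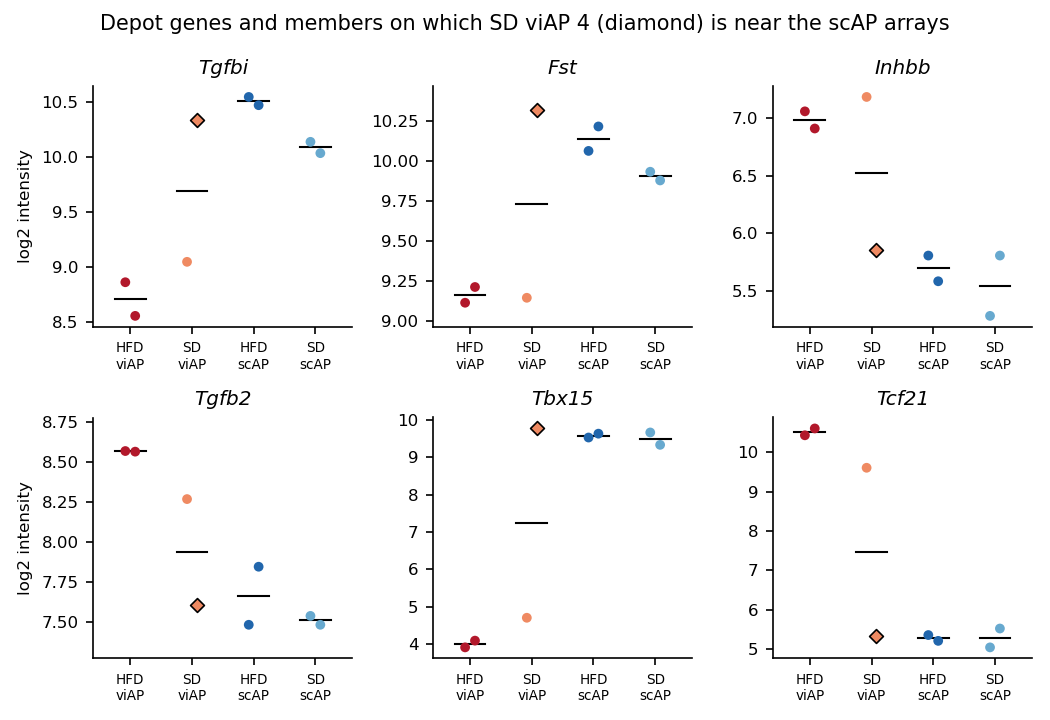
Log2 intensity (vertical axis) of Tgfbi, Fst, Inhbb, Tgfb2 and the depot genes Tbx15 and Tcf21 on the 8 arrays, by group, with the array labelled SD viAP 4 as a diamond. The diamond lies with the scAP arrays for Tbx15 (9.77), Tcf21 (5.32) and Tgfbi (10.34), and apart from SD viAP 3.

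The other genes of both pathways were followed in 5 lists, of which 83 genes were measured. Their counts stand against 60.5% of probe sets called higher in viAPs and 20.0% in scAPs inside the filter, and 2.37% and 0.192% outside it. Of the 19 other ligands, activators and traps, 6 were called higher and 0 lower in HFD viAPs, and 3 higher in HFD scAPs, with median changes of 0.30 and 0.23, all among the 8 inside the filter. They included the proteins that hold and release latent TGF-beta. Thbs1, the activator thrombospondin, changed by 1.98 ± 0.56 in viAPs (adjusted p = 0.0178, and 0.94 without SD viAP 4). Ltbp4 and Ltbp1, which tether the latent complex to matrix, changed by 1.79 and 1.24, and Lrrc32, which displays it on the cell surface, by 1.66. Without SD viAP 4 these changes were 1.27, 1.15 and 1.46. In scAPs Lrrc32 (1.24 ± 0.20, adjusted p = 0.0194), Ltbp1 (0.85) and the processing protease Furin (0.85) were called. Of the 17 other receptors, SMADs and regulators, 11 were higher in HFD viAPs and 4 in HFD scAPs, with medians of 0.61 and 0.32, all among the 13 inside the filter. The 4 called in scAPs had the largest changes in viAPs too. The coreceptor Eng, which is also an endothelial marker, changed by 0.93 in viAPs and 1.10 in scAPs, the SMAD adaptor Sptbn1 by 0.88 and 0.81, the SMAD4 ubiquitin ligase Trim33 by 0.82 and 0.72, and the SMAD phosphatase Ppm1a by 0.75 and 0.67.

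Of 13 further TGF-beta targets, 5 were higher in HFD viAPs and 2 in HFD scAPs, with medians of 0.66 and 0.10. Inside the filter 3 of 8 were called in viAPs and 2 of 8 in scAPs, and outside it 2 of 5 in viAPs. In viAPs these were the proteoglycan versican (Vcan, 1.13), the collagen crosslinker Lox (0.95), smooth muscle actin (Acta2, 0.72), fibronectin (Fn1, 0.67) and Tagln (0.66). Acta2 and Tagln are also markers of smooth muscle and pericytes, of whose 12 marker genes 4 were called higher and 2 lower in HFD viAPs, and their calls and that of Fn1 were lost without SD viAP 4, where Vcan changed by 0.69 (adjusted p = 0.0261) and Lox by 1.40 (adjusted p = 0.00569). In that fit, which rests on SD viAP 3 alone, Postn changed by 1.48, Col1a2 by 0.56 and Col3a1 by 0.55. These 3 matrix genes were named after their values were seen. With all arrays they were not called, at 0.75 (adjusted p = 0.110), 0.06 (adjusted p = 0.841) and 0.14 (adjusted p = 0.623). Col1a1 changed by -0.32 with all arrays and by 0.28 without SD viAP 4. In scAPs Vcan (0.98) and the protease inhibitor Timp3 (0.77) were called. Of 19 further Hippo genes, 7 were higher in HFD viAPs and 2 in HFD scAPs, with medians of 0.40 and 0.30, all among the 9 inside the filter. In viAPs the upstream regulator Frmd6 changed by 1.19, the TEAD partner Vgll3 by 1.01, the kinase Taok1 by 0.99 and the scaffold Wwc2 by 0.76. Without SD viAP 4 these changes were 0.91, 1.11, 0.72 and 0.64. In scAPs Frmd6 (0.72) and Taok1 (0.76) were called. Of 16 further YAP and TAZ targets, 7 were higher and 1 lower in HFD viAPs and 2 higher in HFD scAPs, with medians of 0.47 and 0.19. Of the 10 inside the filter 6 were called higher in viAPs and 2 in scAPs, and of the 6 outside it 1 in viAPs. The lower one was Igfbp3, a binding protein of insulin-like growth factors (-1.35 ± 0.24, adjusted p = 0.00569), and the membrane repair protein Myof (1.18), the ectonucleotidase Nt5e (1.00) and the RNA-binding protein Rbms3 (0.90) led those that rose. Without SD viAP 4 Igfbp3 (-1.02, adjusted p = 0.0101) and Myof (0.81, adjusted p = 0.0273) stayed called, while Nt5e (0.60, adjusted p = 0.221) and Rbms3 (0.59, adjusted p = 0.0740) did not. In scAPs the growth arrest genes Gadd45a (0.75) and Gadd45b (0.73) were called. Without SD viAP 4 the viAP counts of higher genes in the 5 lists were 6, 7, 5, 6 and 4, where 46.5% of filtered probe sets were called higher.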

How the data were processed

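RNA from bead-purified APs was hybridised to 8 Affymetrix Mouse Gene 1.0 ST arrays. The authors deposited 1 RMA intensity per probe set and array, as whole numbers on a linear scale for 35556 probe sets; the submitters' notes name RMA and Affymetrix Expression Console 1.1. Values were taken to log2 with no pseudocount or further scaling. Of the probe sets, 21789 carried 1 gene symbol. As in the study's methods, tests were limited to those above log2 7 on at least 3 arrays and in the upper tercile of mean absolute deviation (3076 probe sets). limma 3.58.1 in R 4.3.3 was fitted to all 8 arrays with 1 mean per group and Benjamini-Hochberg adjustment. Genes outside the filter were fitted with and adjusted over all 21789. Genes were called at an adjusted p under 0.05, and changes are HFD minus SD or viAP minus scAP. The same steps were tested on simulated data. All 37 genes were named. Of each other pathway list, up to 4 called genes with the largest change per diet comparison were named, and Tagln besides. Postn, Col1a2 and Col3a1 were named from the fit without SD viAP 4. Of marker lists counts and sums were given, and Pdgfra, Pecam1, Tbx15, Tcf21, Wt1, Eng and Tek were named. The genes, lists and tests were chosen with earlier results of these data known. Alternatives covered the filter, arrays fitted, pseudocount, scaling, moderation, fold minimum, probe set choice and leaving out each array. The number of arrays limits the precision. Promoters came from RefSeq, and figures from matplotlib 3.10.9 in Python 3.11.15.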

Additional observations from a re-analysis of the deposited data

Results flagged for a closer look

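For 2 of the 37 genes the arrays of the depots moved in opposite directions with diet without overlap (5.41%), against 2.60% of all probe sets with 1 symbol and 2.67% of those above the expression level. The viAP change minus the scAP change was -1.41 for Tgfbi, with both HFD arrays below both SD arrays in viAPs and above them in scAPs, and it did not pass limma's test (adjusted p = 0.428). Without the array labelled SD viAP 4 the value was -0.76, and without SD viAP 3 it was -2.06. For Ankrd1, the difference was 0.64, with both HFD arrays above the SD arrays in viAPs and below them in scAPs, and it did not pass either (adjusted p = 0.635). Ankrd1 lay below the expression level on all 8 arrays.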

How the results depend on the processing

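No paired analysis was possible because the GEO labels give the arrays numbers running from 1 to 8, and no number occurs in more than 1 group there. The call counts of 23 in viAPs, 6 in scAPs and 24 over both depots were 11, 1 and 16 after a second quantile normalization (27.2%, 0.948% and 37.3% of filtered probe sets called higher, against 60.5%, 20.0% and 66.9% without it), and 3, 1 and 2 with a 2-fold minimum. The difference between the diet changes had 0 calls in both settings. With no filter the counts were 18 in viAPs, 4 in scAPs and 24 over both depots. Lost were Tgfb2, Tgfbi, Pmepa1, Tead3 and Ccn1 in viAPs, and Tgfbr1 and Skil in scAPs. The share of all probe sets called with no filter was not counted. The 6 scAP calls were 11 with moderation over all deposited probe sets, an alternative chosen after seeing the data. The 3 HFD depot calls were 7 when only the 4 arrays compared were fitted and 0 without moderation. For these settings and the 2-fold minimum the share of filtered probe sets called was not counted. Leaving out 1 array gave 2 to 23 calls in viAPs, 0 to 14 in scAPs, 0 to 3 for the difference between diet changes, 0 to 5 between SD depots, 0 to 7 between HFD depots and 18 to 28 over both depots. The share of filtered probe sets called was counted only without SD viAP 4, in viAPs and between SD depots. The other counts in these ranges cannot be set against the background. No called change turned its sign in any setting run. Scaling moved the background as well. The share of filtered calls that were higher was 93.1% in viAPs and 96.5% in scAPs, and 71.4% and 83.3% after a second quantile normalization, which set the median change of probe sets above the expression level to 0.07 and 0.04 and that of the 37 genes to 0.36 and 0.29. Median centring put the median viAP change over all probe sets at 0.09, against -0.05 without it. It gave 27 calls in viAPs and 9 in scAPs, where 71.0% and 22.8% of filtered probe sets were called higher, against 60.5% and 20.0% without it. The GGAATG share was 26.5% with a window of 200 bases before the start, against 10.1% of all promoters.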
